A study of Mus musculus with 6 samples.

Results

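Plasmacytoid dendritic cell (pDC) genes were followed in whole-lung RNA of 6 mice. The 9 genes were Siglech, Ccr9, Ly6d, Tcf4, Cox6a2, Pacsin1, Klk1, Runx2 and Cd300c, a marker set found by gene symbol among the 25965 genes listed in the deposited table. All 9 were detected and all 9 were among the 16708 genes tested. Every mouse was a ZBTB46 DTR chimera, in which the diphtheria toxin receptor is tied to Zbtb46, a transcription factor gene of classical dendritic cells (cDC) that is also transcribed in endothelium, and every mouse was kept in hypoxia at 10% oxygen for 7 days. Diphtheria toxin (DT) was given to 3 mice in 3 doses: a first of 40 ng/g on the day preceding hypoxia, followed by 8 ng/g at intervals of 3 days. The other 3 mice received vehicle (PBS). Libraries held 16766386 to 18831937 reads in DT mice and 18027303 to 19084657 in PBS mice. The labels name neither the donor and host of the chimeras nor the age of the mice. Toxin in mice without the receptor was not analysed here, so an effect of cDC loss and an effect of the toxin itself cannot be told apart. The study asked which lung processes accompany protection from hypoxic pulmonary hypertension after cDC depletion.

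Plasmacytoid dendritic cells are blood-borne cells that sense nucleic acids in endosomes through Toll-like receptors and can release large amounts of type I interferon. They descend from progenitors shared with, or close to, those of cDC and B cells, but their fate is set by the E protein encoded by Tcf4 and they do not express Zbtb46 as cDC do. In a mouse lung they are a rare population. In whole tissue, fewer cells of a type and less RNA per cell cannot be told apart, and several of the 9 genes are also transcribed outside pDC: Tcf4 and Runx2 in mesenchymal cells, Tcf4 in endothelium, Cox6a2 in heart and skeletal muscle, Ly6d in early B cells and squamous epithelium, Ccr9 in T cells and Klk1 in glands.

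Promoter windows are shown for the 3 genes with the largest log2 fold change of DT over PBS among the 9 (on log2 of reads per 1000000 reads plus 1), since all 3 averaged higher in DT mice and E proteins such as TCF4 bind the E-box, CANNTG. Each window runs from 250 bases before to 50 bases after a start site from RefSeq on GRCm38.p6. The windows lie on the plus strand at chr7:55767934-55768233 for Siglech, chr9:123766961-123767260 for Ccr9 and chr7:44225110-44225409 for Klk1. That of Ccr9 lies inside the listed span of the gene, which begins at 123678439. That of Klk1 ends before the listed span of its gene, which begins at 44225437. Capitals mark every CANNTG, which reads the same way on both strands.
Siglech: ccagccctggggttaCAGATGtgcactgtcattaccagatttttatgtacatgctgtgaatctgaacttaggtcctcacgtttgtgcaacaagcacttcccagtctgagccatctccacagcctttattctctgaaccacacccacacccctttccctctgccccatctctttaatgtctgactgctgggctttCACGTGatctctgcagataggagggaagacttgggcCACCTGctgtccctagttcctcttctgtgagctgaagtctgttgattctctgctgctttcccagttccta
Ccr9: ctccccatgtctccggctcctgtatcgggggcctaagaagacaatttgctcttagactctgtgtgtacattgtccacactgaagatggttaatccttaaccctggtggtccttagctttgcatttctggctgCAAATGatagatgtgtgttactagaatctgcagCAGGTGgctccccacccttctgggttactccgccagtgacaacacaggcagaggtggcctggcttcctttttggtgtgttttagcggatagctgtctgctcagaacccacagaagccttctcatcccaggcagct
Klk1: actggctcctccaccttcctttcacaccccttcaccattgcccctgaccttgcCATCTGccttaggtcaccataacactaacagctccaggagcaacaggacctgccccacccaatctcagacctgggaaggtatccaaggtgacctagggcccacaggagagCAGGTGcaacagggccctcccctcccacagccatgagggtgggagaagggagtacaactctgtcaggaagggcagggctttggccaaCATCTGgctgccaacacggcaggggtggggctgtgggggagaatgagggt
The windows of Siglech and Klk1 each held 3 E-boxes and that of Ccr9 held 2. An E-box lay in 72.3% of the 32851 windows of the same length in the table, so most windows hold 1 or more. The form CAGGTG, or CACCTG on the other strand, is 1 kind of CANNTG. It occurred once in each of the 3 windows shown, and in that of Cd300c, against 20.2% of all windows. The windows of Pacsin1 and Runx2 did not hold it. Windows of 6 of the 9 genes were searched, and those of Tcf4, Ly6d and Cox6a2 were not. The windows shown were picked by fold change in these data, so the share beside them is no test of the motif. A match of letters is a description and was not tied to binding in these lungs.

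Tcf4 encodes the E protein that commits progenitors to the pDC fate and keeps them there (ENSMUSG00000053477, mm10 chromosome 18, 69344146 to 69687967). It stood at 202, 192 and 207 reads per 1000000 reads (RPM) in DT mice and 228, 201 and 206 RPM in PBS mice. The groups overlapped, and the highest value belonged to PBS mouse 1. Fitted by limma on log2(RPM + 1), as for every gene that follows, DT over PBS gave a log2 fold change of -0.08 ± 0.06 (SE), with an adjusted p of 0.764. Without PBS mouse 1 it was -0.02. Tcf4 made up 72.5% to 75.5% of the summed RPM of the 9 genes in DT mice and 76.4% to 83.4% in PBS mice. Most of that sum was thus Tcf4, but the mice did not rank alike. The sum was highest in DT mouse 1, at 279 RPM, and Tcf4 was highest in PBS mouse 1.

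Runx2, a Runt-domain transcription factor known from bone and needed for pDC to leave the marrow, lies on chromosome 17 (44495987 to 44814797). It stood at 35.3, 31.0 and 29.3 RPM in DT mice, against 20.4, 27.0 and 29.8 RPM in PBS mice. PBS mouse 1 was the lowest of the 6, and PBS mouse 3 lay within the DT range. DT over PBS gave 0.31 ± 0.13 on the log2 scale (limma, adjusted p = 0.548), and 0.16 without PBS mouse 1. An antisense gene, Runx2os1, shares 519 exonic bases with Runx2 and read 1.31, 1.43 and 1.47 RPM in DT mice and 0.832, 1.17 and 1.47 RPM in PBS mice. Since the use of strand in counting is not given, reads in that stretch cannot be assigned.

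Siglech, which encodes the sialic acid-binding lectin that is the most used surface marker of mouse pDC and signals through the adaptor encoded by Tyrobp, lies on chromosome 7 (ENSMUSG00000051504, 55768178 to 55778925). It stood at 9.78, 6.69 and 8.00 RPM in DT mice and at 2.05, 7.41 and 4.56 RPM in PBS mice. All DT mice were above PBS mice 1 and 3, while PBS mouse 2 lay inside the DT range. The means were 8.16 ± 1.55 RPM in DT and 4.67 ± 2.68 RPM in PBS (SD, n = 3 each). The log2 fold change was 0.80 ± 0.33, with a 95% interval of 0.04 to 1.56 before adjustment, and did not pass over all genes (limma, adjusted p = 0.538). The value rested in part on PBS mouse 1: without it the log2 fold change was 0.41, and without PBS mouse 2 it was 1.14. The 37 reads of PBS mouse 1 gave an exact Poisson 95% interval of 1.45 to 2.83 RPM, and the 87 and 139 reads of PBS mice 3 and 2 gave 3.65 to 5.62 and 6.23 to 8.75 RPM. The PBS mice thus differed among themselves by more than counting error, which is all these intervals cover.

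Cd300c, an activating receptor of the CD300 family that pairs with Fc receptor gamma chain, was the least abundant of the 9 in RPM (chromosome 11, 114956116 to 114969157). Its reads numbered 15, 7 and 19 in DT mice and 7, 17 and 11 in PBS mice, or 0.895, 0.372 and 1.03 RPM and 0.388, 0.906 and 0.576 RPM. The groups overlapped fully at this depth. DT over PBS gave 0.11 ± 0.20 on the log2 scale (95% interval -0.36 to 0.58, adjusted p = 0.922 by limma), and ran from 0.00 without DT mouse 3 to 0.29 without DT mouse 2. With a pseudocount of 0.1 and with limma-voom it was 0.23.

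Ccr9, the chemokine receptor that guides pDC and T cells to CCL25 in gut and thymus, had the largest log2 fold change of the 9 (ENSMUSG00000029530, chromosome 9, 123678439 to 123783457). It stood at 6.14, 3.72 and 7.13 RPM in DT mice and 2.11, 2.82 and 2.52 RPM in PBS mice. Every DT mouse was above every PBS mouse, with DT mouse 2 nearest to the PBS range. The means were 5.66 ± 1.75 RPM in DT and 2.48 ± 0.359 RPM in PBS (SD, n = 3 each), a ratio of 2.28. On the log2 scale the difference was 0.90 ± 0.21 (95% interval 0.41 to 1.39) and missed the threshold over all genes (limma, adjusted p = 0.243). Without DT mouse 2 it was 1.13 and passed (limma, adjusted p = 0.0262), in a fit that called 0.844% of all genes. In the fits without any other mouse the adjusted p lay between 0.321 and 0.605. Counting error alone was not small: the interval of DT mouse 2, 2.90 to 4.70 RPM, overlapped that of PBS mouse 2, 2.12 to 3.69 RPM.

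The listed span of Ccr9 holds other genes, and their values bear on whose reads were counted. Lztfl1, which lies inside the span on the opposite strand without sharing an exon, read 42.6, 44.8 and 43.0 RPM in DT mice and 42.4, 45.9 and 46.5 RPM in PBS mice. AC165425.1, on the opposite strand, shares 1932 exonic bases with Ccr9 and read 0.954, 1.06 and 1.03 RPM in DT mice and 0.943, 1.12 and 0.996 RPM in PBS mice. Slc6a20a shares 22 bases and read 22.0, 17.0 and 16.7 RPM in DT mice and 11.2, 18.2 and 17.3 RPM in PBS mice. The groups overlapped for each of these neighbours. Ccl25, the ligand of CCR9, averaged 7.01 RPM over the 6 mice and differed by -0.07 ± 0.16 on the log2 scale (limma, adjusted p = 0.939).

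Pacsin1 encodes a membrane-bending adaptor of endocytosis, abundant in neurons and needed for full interferon release by pDC (chromosome 17, 27655509 to 27711106). It stood at 5.31, 5.63 and 5.77 RPM in DT mice and 2.72, 4.80 and 6.24 RPM in PBS mice. The DT mice were close together and lay inside the PBS range. The log2 fold change was 0.29 ± 0.23 (limma, adjusted p = 0.772) and 0.02 without PBS mouse 1. Neuronal and glial markers, 6 of 10 tested, had a median log2 fold change of 0.04, and their summed RPM was 25.1 to 34.6 in DT mice and 29.8 to 31.6 in PBS mice.

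Klk1, a tissue kallikrein protease of glands that is also a transcript of mouse pDC, was the other gene whose groups did not overlap (chromosome 7, 44225437 to 44229617). It stood at 2.51, 2.28 and 2.99 RPM in DT mice and 1.66, 2.03 and 1.31 RPM in PBS mice. All DT mice were above all PBS mice, by a small step. On the log2 scale the difference was 0.43 ± 0.16 (limma, adjusted p = 0.485) and ran from 0.34 to 0.53 with each mouse left out. The counting intervals of the nearest mice overlapped. DT mouse 2, with 43 reads, had an interval of 1.65 to 3.08 RPM and PBS mouse 2, with 38 reads, 1.43 to 2.78 RPM. That overlap concerns this 1 pair and is no test of the groups. Klk1 has close copies in the Klk1b cluster, and how reads with several matches were handled is not given. Of the 13 copies listed, 6 had no read in any library, and the most read, Klk1b27, averaged 0.362 RPM. Gland markers, 6 of 10 tested, had a median log2 fold change of 0.00, and their summed RPM was 234 to 523 in DT mice and 259 to 470 in PBS mice.

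Ly6d, a small lipid-anchored surface protein of early B-lineage and pDC progenitors (chromosome 15, 74762056 to 74763567), stood at 9.78, 8.18 and 6.31 RPM in DT mice and 8.15, 9.91 and 9.38 RPM in PBS mice. The groups overlapped, and DT mouse 3 was the lowest. The log2 fold change was -0.17 ± 0.16 (limma, adjusted p = 0.812), -0.31 without DT mouse 1 and -0.03 without DT mouse 3.

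Cox6a2 encodes the muscle form of a subunit of respiratory complex IV, which pDC also transcribe (chromosome 7, 128205436 to 128206366). It stood at 6.86, 7.59 and 6.53 RPM in DT mice and 7.99, 7.14 and 7.34 RPM in PBS mice. The 6 counting intervals all overlapped, and the log2 fold change was -0.09 ± 0.12 (limma, adjusted p = 0.883), running from -0.14 to -0.05 with each mouse left out. DT mice 3 and 1 were the lowest pair. The same 2 mice were the lowest pair for 11 of 12 cardiac muscle markers, an order seen in 6.95% of all genes tested. The summed RPM of those markers was 211, 382 and 214 in DT mice and 322, 330 and 361 in PBS mice, and Nppa, an atrial hormone gene, read 0.537, 10.9 and 0.0544 RPM in DT mice and 2.995, 8.63 and 14.4 RPM in PBS mice. The cardiac list had 0 genes past the test (limma) and a median log2 fold change of -0.40. At an unadjusted p under 0.05, 4 were lower and 0 higher, against 4.03% and 5% of all genes tested. How much of the Cox6a2 signal came from muscle was not tested. The liver-type form Cox6a1, found in most cells, read 10.7, 10.0 and 10.5 RPM in DT mice and 10.6, 10.2 and 8.86 RPM in PBS mice.

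**Figure D1:**
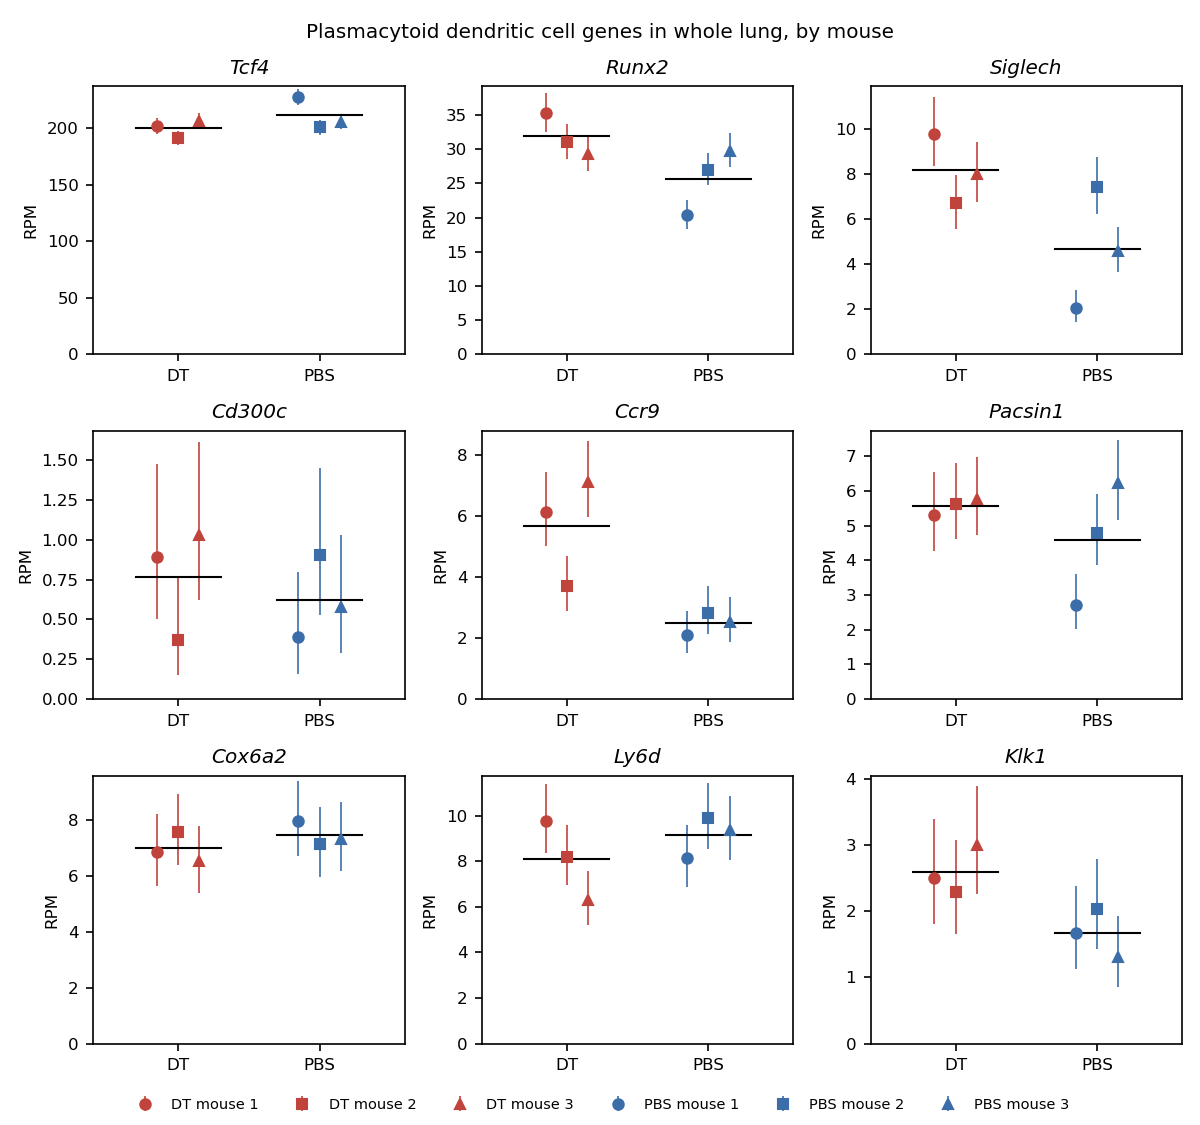
RPM (linear axis from 0) of the 9 pDC genes in each DT mouse (red) and PBS mouse (blue), with exact Poisson 95% intervals of the read count as bars and the group mean as a black line. The groups are apart for Ccr9 and Klk1 and overlap for the other 7 genes, and PBS mouse 1 is the lowest of the 6 for Siglech, Ccr9, Pacsin1 and Runx2.

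Of the 9 genes, 0 passed over all genes tested with limma and 0 with limma-voom, where limma called 0.281% of all genes. At an unadjusted p under 0.05, 4 of the 9 were higher in DT mice (Ccr9, Klk1, Siglech and Runx2), against 5% of all genes in that direction, and 0 were lower, against 4.03%. That count of 4 was 2 (Ccr9 and Klk1) under median-of-ratios scaling, under upper-quartile scaling and without the filter on low values. It was 1 (Ccr9) with a replicate block. Leaving out any 1 mouse lowered it. The count was 2 without PBS mouse 1 or DT mouse 1 (Ccr9 and Klk1) and without DT mouse 3 (Ccr9 and Runx2). Without DT mouse 2, PBS mouse 2 or PBS mouse 3 it was 3. The groups did not overlap for 2 of the 9, with DT higher, against 7.65% of all genes, and for 0 of the 9 with DT lower, against 6.79%. The median log2 fold change of the 9 was 0.29, and that of all genes tested was 0.00. Signs were positive for 6 and negative for 3, and each gene kept its sign in all 12 alternatives. These shares describe a short list chosen with earlier results known and are not a test of it.

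**Figure D2:**
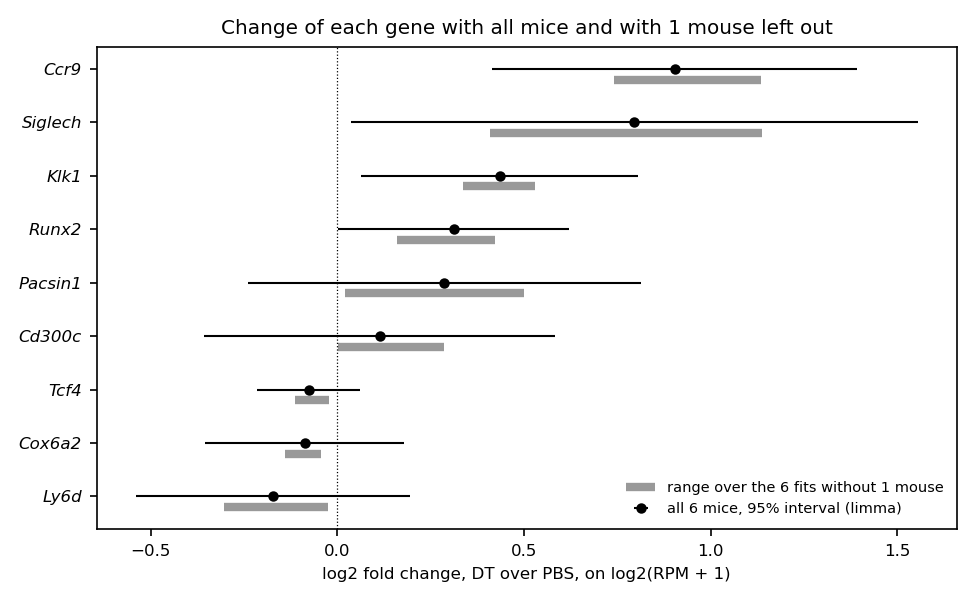
Log2 fold change of DT over PBS for each pDC gene on log2(RPM + 1), with all 6 mice and its 95% interval before adjustment (black), and the range over the 6 fits that each leave out 1 mouse (grey). The grey ranges run from 0.74 to 1.13 for Ccr9, 0.34 to 0.53 for Klk1, 0.41 to 1.14 for Siglech and 0.02 to 0.50 for Pacsin1, and none of the 9 crosses 0.

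Levels of the 9 genes were also compared per exonic length. Over the 6 mice the mean RPKM, which is RPM divided by the exonic length in kilobases, was 11.6 for Ly6d, 10.6 for Cox6a2, 7.52 for Tcf4, 3.26 for Runx2, 1.98 for Klk1, 1.90 for Siglech, 0.778 for Pacsin1, 0.653 for Cd300c and 0.397 for Ccr9. The ranges over mice overlapped between neighbours in this order, except that Cox6a2 (9.60 to 11.7 RPKM) lay above Tcf4 (7.00 to 8.33 RPKM) and Tcf4 above Runx2 (2.30 to 3.996 RPKM). Sftpc, a surfactant gene known as one of the most abundant transcripts of lung, averaged 8.91 RPM here, at 0.158 reads per exonic base, and the club cell gene Scgb1a1 3.95 RPM, at 0.152. Ly6d, Cox6a2 and Tcf4 lay at 0.212, 0.195 and 0.138 reads per exonic base, and the non-members Tyrobp and Cox6a1 at 0.349 and 0.264. Levels across genes are therefore given as deposited and not as abundance. Whether differences in these 5 genes, or in others as dense in reads, were compressed was not tested. Cxcl12 and Id1, named below, averaged 39.3 and 36.0 RPKM, above Ly6d. Runx2 lay at 0.0595 and Siglech, Ccr9, Pacsin1, Klk1 and Cd300c at 0.00720 to 0.0361 reads per exonic base.

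The marker lists of other blood cells moved between mice in ways that touch these results. PBS mouse 1 was the lowest of the 3 PBS mice for 6 of the 9 pDC genes, for 10 of 12 cDC markers, for 9 of 10 B cell markers for 8 of 10 T cell markers and for 4 of 10 monocyte markers, against 30.1% of all genes tested. On log2(RPM + 1) it differed from the average of PBS mice 2 and 3 by -1.16 for Siglech, -0.80 for Pacsin1 and -1.09 for the cDC list. Without it the log2 fold change was 0.41 for Siglech, 0.02 for Pacsin1, 0.16 for Runx2 and 0.82 for Ccr9. Without that mouse the median of the 9 genes was 0.02, and 2 of the 9 had an unadjusted p under 0.05. The count was also 2 without DT mouse 1 and without DT mouse 3, where the medians were 0.24 and 0.26.

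The cDC list, whose cells the toxin targets, had a median of opposite sign in the same fit. The 12 cDC markers had a median log2 fold change of -0.44, with 11 negative and 0 past the test (limma). At an unadjusted p under 0.05, 5 were lower, against 4.03% of all genes tested. Of the 9 pDC genes, 6 were positive. The difference between the lists was not tested. Zbtb46, the highest of the cDC markers in mean RPM, is the gene that carries the receptor. It stood at 87.2, 82.0 and 84.1 RPM in DT mice and 108, 99.8 and 89.1 RPM in PBS mice. The groups did not overlap (-0.22 ± 0.07, limma adjusted p = 0.411). Next in mean RPM were Wdfy4 (-0.04 ± 0.38) and Itgax (0.11 ± 0.16). Flt3, the growth factor receptor shared by both cell types, stood at 4.83, 3.88 and 1.52 RPM in DT mice and 3.22, 11.1 and 13.2 RPM in PBS mice, with the DT mice overlapping PBS mouse 1. DT mouse 3 was the lowest of the 6 for 7 of the 12 cDC markers, against 1646 of the 16708 genes tested, with Xcr1 at 0.272 RPM. Of the 9 pDC genes, DT mouse 3 was the highest for Ccr9, Klk1 and Cd300c and the lowest for Ly6d and Cox6a2. The summed RPM of the cDC list was 311, 252 and 241 in DT mice and 242, 369 and 400 in PBS mice.

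B cell markers, which share Ly6d and the E protein programme with pDC, had a median of -0.30, with 10 of 10 negative and 0 past the test (limma). Of the 10, 4 were lower at an unadjusted p under 0.05, against 4.03% of all genes tested. Their summed RPM was 170, 166 and 140 in DT mice and 163, 204 and 226 in PBS mice. The lowest mouse for that sum, DT mouse 3, was also the lowest for Ly6d. T cell markers, from cells known to transcribe Ccr9, had a median of -0.08, with 4 of 10 positive, and their summed RPM was 116, 94.6 and 112 in DT mice and 93.4, 110 and 130 in PBS mice. Monocyte markers had 8 of 10 positive and a median of 0.20. At an unadjusted p under 0.05, 3 of them were higher and 1 lower, against 5% and 4.03% of all genes tested. The part of these cells in the differences of Ccr9 and Siglech was not tested.

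**Figure D3:**
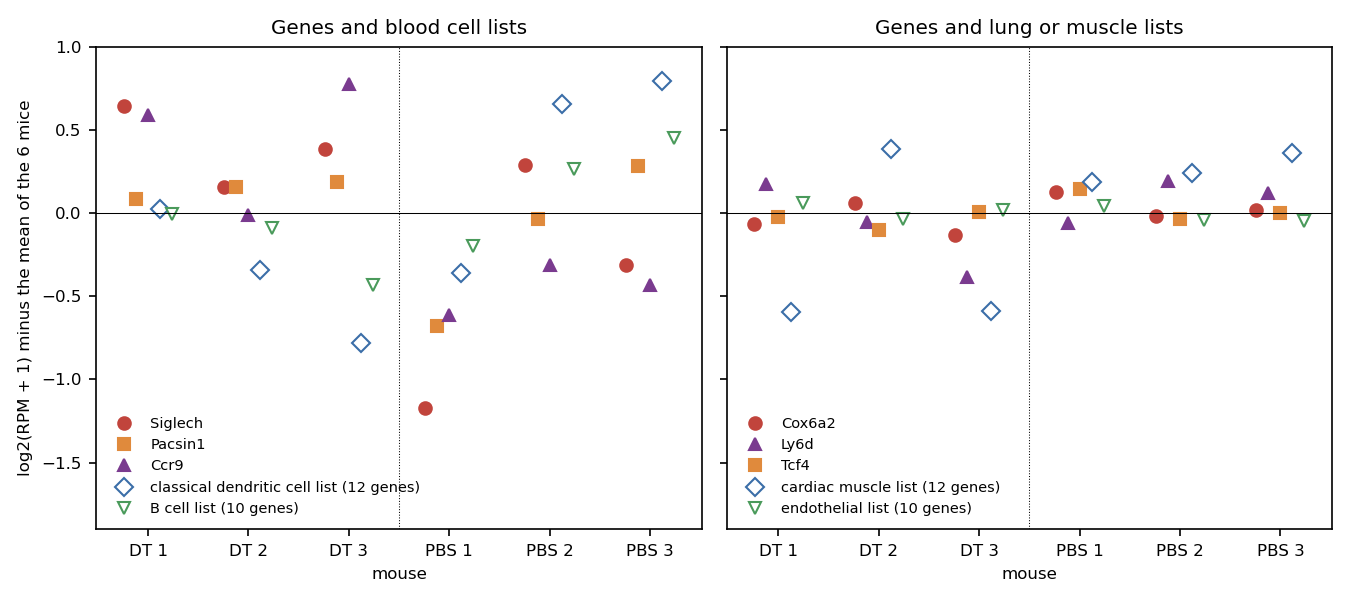
Log2(RPM + 1) in each mouse minus the mean of the 6 mice, for pDC genes (filled) and for the mean of marker lists (open), DT mice left and PBS mice right of the dotted line. Siglech is 1.17 below the mean in PBS mouse 1, and the cardiac list is low in DT mice 1 and 3. The cDC list is lowest in DT mouse 3, where Ccr9 is highest and Ly6d and Cox6a2 are lowest.

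Beside the 9, 8 further lists held genes of the pDC programme and relatives of the 9, 104 genes in all, of which 74 were tested. Of the 74, 0 passed over all genes (limma), and the median log2 fold change was 0.05. At an unadjusted p under 0.05, 8 were higher and 4 lower, where 5% and 4.03% of all genes were. The relatives, several of which mark other myeloid cells or B cells, supplied 4 of the 8 and 1 of the 4.

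Of 11 transcription factors of the programme tested, 0 passed (limma) and 0 had an unadjusted p under 0.05, with 6 positive and a median of 0.00. Zeb2, a repressor needed for pDC development, averaged 191 RPM over the 6 mice (0.02 ± 0.04 on the log2 scale), Runx1 127 RPM (0.11 ± 0.06) and Cbfa2t3, a corepressor that works with TCF4, 97.5 RPM (-0.03 ± 0.05). Spib, an ETS factor of pDC and B cells, stood at 17.9, 17.4 and 13.4 RPM in DT mice and 15.8, 23.8 and 24.7 RPM in PBS mice (-0.36 ± 0.18). Irf8, shared with cDC1, read 75.5, 69.2 and 66.5 RPM in DT mice and 68.2, 82.1 and 80.9 RPM in PBS mice. For Spib and Irf8, PBS mouse 1 lay inside the DT range. Bcl11a, which acts upstream of Tcf4, was lowest in PBS mouse 1 at 5.10 RPM, against 11.3, 10.8 and 9.25 RPM in DT mice and 12.7 and 13.9 RPM in the other PBS mice.

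The Id proteins bind E proteins and keep them off DNA, so Id2 favours cDC over pDC. Of 4 tested, 0 passed (limma). Id3 (-0.06 ± 0.08) and Id1 (-0.06 ± 0.06) were the highest in mean RPM. Id2 differed by 0.04 ± 0.07 on the log2 scale, with 29.8, 26.1 and 25.9 RPM in DT mice and 26.8, 26.8 and 25.4 RPM in PBS mice. Id4 was the member whose groups did not overlap, at 17.8, 19.6 and 17.8 RPM in DT mice and 21.5, 22.9 and 20.7 RPM in PBS mice (-0.23 ± 0.08, limma adjusted p = 0.458).

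Other surface and cell-type genes of mouse pDC gave a mixed picture. Of 24 tested, 0 passed (limma), and the median was 0.06. At an unadjusted p under 0.05, 4 were higher and 2 lower, against 5% and 4.03% of all genes tested. Highest in mean RPM were Lifr (-0.03 ± 0.06), Ptprs (0.06 ± 0.07) and Ptprc (0.12 ± 0.13). Among those higher were the inhibitory receptors Lair1 (0.37 ± 0.13) and Lag3 (0.30 ± 0.13), and Ly6c2 (0.24 ± 0.10). For these 3, every DT mouse was above every PBS mouse. Lair1 read 28.4, 21.7 and 24.0 RPM in DT mice and 15.7, 20.2 and 21.0 RPM in PBS mice. Lair1 and Ly6c2 are also monocyte genes, and Lag3 a T cell gene. The 2 lower were Flt3, given above, and Sh3bgr, also a heart gene, at 5.79, 8.02 and 5.004 RPM in DT mice and 8.54, 8.85 and 9.17 RPM in PBS mice, with DT mice 3 and 1 again the lowest. Bst2, the tetherin that marks mouse pDC at rest and is induced by interferon, read 15.9, 14.9 and 14.4 RPM in DT mice and 14.6, 14.6 and 13.9 RPM in PBS mice.

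Of the endosomal sensing pathway, which leads from TLR7 and TLR9 through MyD88 to IRF7, 11 genes were tested, 0 passed (limma) and 0 had an unadjusted p under 0.05. Highest in mean RPM were Traf3 (0.07 ± 0.06), Traf6 (-0.01 ± 0.05) and Irak1 (0.05 ± 0.04). Tlr7 stood at 36.4, 26.7 and 30.1 RPM in DT mice and 15.0, 23.4 and 31.5 RPM in PBS mice, and Tlr9 at 21.7, 20.0 and 21.7 RPM in DT mice and 8.10, 21.9 and 26.7 RPM in PBS mice. For both, PBS mouse 1 was the lowest of the 6, as it was for Siglech.

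The interferons that pDC release on activation were at or near no read. Of 17 type I and type III interferon genes in the table, 14 had no read in any of the 6 libraries, which allows up to 0.157 to 0.179 RPM per library (3 reads, counting error only), and 0 reached the level needed for a test. Ifnb1 had 0, 1 and 1 reads in DT mice and 1, 0 and 1 in PBS mice. Ifnab had 2, 0 and 1 reads in DT mice and 0 in each PBS mouse, and Ifnl2 had 1 read, in DT mouse 1.

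The adaptors and kinases that Siglec-H and CD300c signal through (6 tested, 0 past the test by limma, median 0.06) lay close between groups. Tyrobp, the adaptor DAP12, read 14.6, 12.1 and 12.6 RPM in DT mice and 12.7, 11.99 and 12.6 RPM in PBS mice. Syk averaged 104 RPM (0.11 ± 0.10), Plcg2 43.3 RPM (0.16 ± 0.13) and Btk 13.4 RPM (-0.03 ± 0.16). The retention pair Cxcl12 (0.00 ± 0.07) and Cxcr4 (-0.04 ± 0.06) lay close as well. Whether differences in genes this dense in reads were compressed was not tested.

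Relatives of the 9 genes were compared where the same family could share reads or function. Of 19 tested, 0 passed (limma). At an unadjusted p under 0.05, 4 were higher and 1 lower, against 5% and 4.03% of all genes tested. The 4 were Siglec1, the macrophage sialoadhesin (0.75 ± 0.27), and 3 CD300 genes of myeloid cells, Cd300lb (0.44 ± 0.15), Cd300lf (0.33 ± 0.11) and Cd300a (0.28 ± 0.09). Cd300lb read 14.1, 15.5 and 17.0 RPM in DT mice and 11.04, 8.95 and 14.0 RPM in PBS mice, with no overlap. The lower 1 was the B cell lectin Siglecg (-0.75 ± 0.26), at 9.36, 11.5 and 6.42 RPM in DT mice and 10.4, 17.4 and 20.7 RPM in PBS mice. Cd300c2, the nearest name to Cd300c, read 17.5, 13.9 and 14.7 RPM in DT mice and 13.5, 12.7 and 14.1 RPM in PBS mice (0.17 ± 0.11). The Runx2 relative Runx3 differed by 0.00 ± 0.14 on the log2 scale, and the Pacsin1 relatives Pacsin2 and Pacsin3 by 0.06 ± 0.06 and -0.08 ± 0.07. The E proteins Tcf12 and Tcf3, relatives of Tcf4, differed by 0.00 ± 0.04 and -0.01 ± 0.06. The remaining relatives ran from -0.08 ± 0.21 for Cd300e to 0.33 ± 0.15 for Cd300ld, with Cd33 at 0.20 ± 0.18.

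Markers high in mean RPM in each other list are given on the log2 scale, since several of the 9 genes are also read in those cells. For B cells they were Ebf1 (-0.30 ± 0.09), Cd22 (-0.10 ± 0.19) and Fcer2a (-0.11 ± 0.20), and for T cells Cd4 (0.01 ± 0.12), Lck (-0.08 ± 0.11) and Cd3e (-0.17 ± 0.13). For monocytes they were Ace (0.04 ± 0.05), Fn1 (-0.10 ± 0.07) and Csf1r (0.16 ± 0.08). Picked by level, these 3 all lay below the median of the monocyte list, which was 0.20 with 8 of 10 positive. Cardiac markers gave Myh6 (-0.24 ± 0.09), Ryr2 (-0.77 ± 0.50) and Actc1 (0.04 ± 0.07), and skeletal muscle markers Myh7 (-0.19 ± 0.14), Ckm (-1.05 ± 0.39) and Myh1 (-0.37 ± 0.17). For the cells that share Tcf4, endothelium had Vwf (0.12 ± 0.05), Cdh5 (0.03 ± 0.05) and Kdr (0.10 ± 0.05), and fibroblasts had Pdgfra (0.06 ± 0.04), Pdgfrb (0.00 ± 0.04) and Col1a1 (0.02 ± 0.07). Squamous markers, which share Ly6d, had Sprr1a (1.56 ± 0.56), Ivl (0.52 ± 0.17) and Trp63 (0.11 ± 0.15). Gland markers had Muc5b (-0.01 ± 0.52), Pigr (0.16 ± 0.10) and Ltf (0.25 ± 0.17), and the neural marker Tubb3 gave 0.07 ± 0.18. None of these genes passed over all genes (limma).

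**Figure D4:**
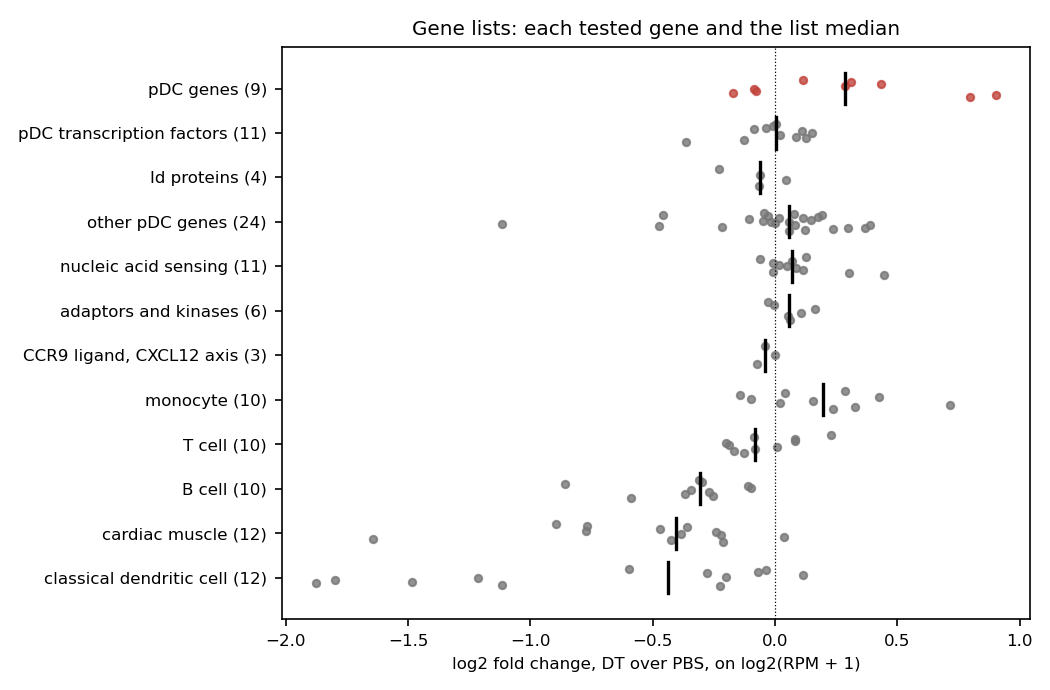
Log2 fold change of DT over PBS on log2(RPM + 1) for each tested gene of the pDC genes (red) and of other lists (grey), with the list median as a black bar, the number tested in brackets and the median of all genes tested as a dotted line. The pDC genes have a median of 0.29, the lists of the wider pDC programme lie near 0, and the cDC, cardiac and B cell lists have medians of -0.44, -0.40 and -0.30.

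Of 15890 genes with a mean of at least 1 RPM, the 3 whose log2(RPM + 1) was most like that of Siglech over the 6 mice were Zfp786, Ppl and Adamtsl4, with a Pearson coefficient of 0.99 each as a description of 6 points. Zfp786 read 3.64, 3.29 and 3.43 RPM in DT mice and 2.22, 3.20 and 2.78 RPM in PBS mice. PBS mouse 1 was lowest, as for Siglech. Since Zfp786 was picked for that likeness, this is no separate observation.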

How the data were processed

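Libraries of whole-lung RNA from 6 mice were made with an mRNA-Seq kit, per the labels' protocols. The submitters' processing notes list FastQC, Trimmomatic and mm10. Neither the alignment, the read counting nor the handling of strand is stated there. For 25965 genes the authors deposited log2 RPM (reads per 1000000 reads). Above the lowest value, 100% of values were whole multiples of 1 read (tolerance 0.1%), and the lowest, 0.9 of a read, stood for no read. Listed genes took 69.8% to 73.1% of each library's reads. Replicate libraries differed by more than sampling noise (chi-square per degree of freedom 2.90 to 7.58).

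Genes were tested where 3 libraries reached 0.538 RPM (10 reads at median depth). The 2-sided test was limma's moderated test (version 3.58.1, R 4.3.3) of log2(RPM + 1), its prior variance following mean level, with Benjamini-Hochberg adjustment over 16708 genes and a threshold of 0.05. Differences on this scale understate changes of low genes. The fit was tested on simulated data. Exonic lengths came from GENCODE M21, which held 25035 of the identifiers, and Poisson intervals from scipy 1.17.1. Alternatives were median-of-ratios and upper-quartile scaling, no filter, a pseudocount of 0.1, limma-voom on recovered reads, a replicate block and leaving out each mouse.

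The genes and the 19 further lists were chosen with earlier results of these data known. Named genes were the 9 and, from each list, the 3 tested genes with the highest mean RPM, without regard to length. Relatives with a mean of at least 1 RPM (some given as a range) and the 3 genes most like Siglech were also named. Others (Spib, Irf8, Bcl11a, Id4, Lair1, Lag3, Ly6c2, Sh3bgr, Flt3, Bst2, Tyrobp, Tlr7, Tlr9, Xcr1, Nppa, Sftpc, Scgb1a1 and neighbours of Ccr9 and Runx2) were chosen after their values were seen. Some genes these rules select are not reported here.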

Additional observations from a re-analysis of the deposited data

How the results depend on the processing

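None of the 9 pDC genes passed the threshold under either scaling, without the filter, with a pseudocount of 0.1, with limma-voom or with the replicate block. With each mouse left out in turn, 0 to 1 passed, the 1 being Ccr9 without DT mouse 2. No gene of the wider pDC lists passed in any of these 12 alternatives, and the sign of each of the 9 held in all 12. Over all genes tested, 46 were higher and 1 lower in DT; the lower count was 0 under both scalings. Leaving out each mouse gave 0 to 56 higher and 0 to 90 lower, with 0 of both without DT mouse 1, 14 and 0 without DT mouse 3, and 51 and 90 without DT mouse 2. The share of calls that were higher was then 36.2% without DT mouse 2, against 97.9% with all mice. With the replicate block 8 were higher and 0 lower. Deviations of same-numbered mice correlated at 0.08, 0.27 and -0.10 for numbers 1 to 3. Other pairs of a DT and a PBS mouse ran from -0.26 to 0.14. With 3 mice per group these values cannot decide whether the numbers pair mice. For Ccr9 the block gave an adjusted p of 0.412 at the same log2 fold change of 0.90. The causes of these differences were not tested. Cd300c had 7 to 19 reads per library, the lowest depth of the 9.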
